A study of Mus musculus with 16 samples.

Results

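Nodal, Lefty1, Lefty2 and Tdgf1 encode the extracellular core of the Nodal signalling pathway, and their RNA was followed across mouse fibroblasts, embryonic stem (ES) cells and induced pluripotent stem (iPS) cells. The 4 genes were taken by name from the 28095 gene names of a whole-genome microarray with 41174 probes, where each was read by 1 probe, and all 4 were among the 31423 probes tested, which are those detected well above background anywhere in the series. Nodal was lower in all 4 iPS clones made with the first chromosome vector, iHAC1, than in both ES lines. Lefty1, Lefty2 and Tdgf1 were low in 2 of those clones and close to ES cells in the others. Tdgf1, too, was below both ES lines in all 4 clones, but only narrowly in those close to ES cells. In the iPS clones made with the second vector, iHAC2, and in the lines that had lost it, none of the 4 genes passed the test against ES cells.

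The 16 arrays held 1 sample each. The starting cells were mouse embryonic fibroblasts (MEFs) of the C57BL/6 strain, measured once, and the references were the ES lines B6ES (C57BL/6) and TT2 (C57BL/6 x CBA F1). The line 20D17, measured once, is an iPS line made with retroviral vectors on a C57BL/6 x DBA background. Clones 1-A3, 1-B, 1-C3 and 1-D6 (iHAC1-iPS, C57BL/6) carry a human artificial chromosome (HAC), an extra chromosome that does not integrate, on which the factors Oct4, Sox2, Klf4 and c-Myc are present in 2 copies each, driven by the ubiquitous CAG promoter. Clones 2-B1, 2-C6, 2-E and 2-N (iHAC2-iPS, C57BL/6) carry the same cassette plus 2 further copies of Oct4 and an shRNA that knocks down p53. The iHAC-free iPS lines (C57BL/6) have lost the vector: F-B1 descends from 2-B1, F-C5 from 2-C6, F-E4 from 2-E, and F-N7 from 2-N. Each HAC sample is 1 clone, and in their derivation the fibroblasts received microRNA mimics and were plated on a feeder layer. According to the study's methods, the ES lines and the clones that received a chromosome were also kept on feeders, which were ICR mouse fibroblasts.

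Nodal is a secreted ligand of the TGF-beta family that signals through activin receptors and the transducers Smad2 and Smad3. It needs a membrane-anchored co-receptor, Cripto, which is the product of Tdgf1. Lefty1 and Lefty2 are secreted antagonists that bind Nodal or its co-receptor, and because they are themselves targets of Nodal signalling they form a feedback loop. In mouse ES cells all 4 genes are known to be transcribed, and the pathway is best known for patterning the early embryo and for maintaining the epiblast.

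The probes are printed to show what was read, Tdgf1 whole and the others by their first 30 of 60 bases, 5′ to 3′ as the array design gives them.
Nodal: ttattagattataaacgagccatttggttc
Lefty1: ctttcatgcaaatctgaagtgctcattata
Lefty2: ttgtcctaacttagtgctctcgtcagacct
Tdgf1: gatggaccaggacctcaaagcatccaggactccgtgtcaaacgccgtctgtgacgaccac
On the mm9 build the array files place the Nodal probe at chr10:60887790-60887849 (+), the Lefty1 probe at chr1:182868137-182868196 (+), the Lefty2 probe at chr1:182827977-182828036 (+) and the Tdgf1 probe at chr9:110843254-110843313 (−). Lefty1 and Lefty2 are neighbouring paralogs, so cross-hybridization was a concern. Their 2 probes shared no run longer than 7 bases and at most 20 of 60 bases without gaps, and no other probe of the array shared a run of 20 bases with any of the 4. The array files list predicted transcripts as well as Tdgf1 for its probe, so its signal may include related loci and is the least certain of the 4.

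Levels are log2 signals minus the 75th percentile of the array, so that 0 is the level of the 75th-percentile probe and 1 unit is 2-fold. They compare 1 gene between arrays and cannot rank different genes, because each probe binds with its own efficiency. A difference was called where limma's test over all arrays gave an adjusted p under 0.05 and a change of at least 2-fold. Between 54.2% and 65.8% of spots were well above background on each array, and no spot was saturated. The 2 ES lines and the iHAC1 clones were scanned in 1 session and the iHAC2 clones and iHAC-free lines in another, so for every comparison across that line the scan session and the group cannot be told apart. Lower RNA in a bulk sample may mean fewer expressing cells or less RNA per cell, which cannot be told apart either.

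The 2 ES lines were close to each other for Nodal, Lefty1 and Tdgf1. Nodal stood at 3.04 in B6ES and 3.21 in TT2, Lefty1 at 5.004 and 4.94, and Tdgf1 at 2.93 and 2.89. Lefty2 was 0.60 higher in TT2 (2.96) than in B6ES (2.36), the widest gap of the 4. Line 20D17 was at most 0.42 from the ES mean for every gene, at 3.18 for Nodal, 4.90 for Lefty1, 2.28 for Lefty2 and 2.49 for Tdgf1. In the MEFs, Nodal was at -3.84, which is 125-fold below the ES mean, and Lefty1 was at -3.37, which is 324-fold below it. Lefty2 was not well above background in the MEFs. Set at the lowest level well above background on that array, it would be 585-fold below the ES mean, which is a rough value. The MEF and 20D17 values rest on 1 array each and were not tested, and the Tdgf1 spot on the MEF array was marked as non-uniform by the scanner software, so MEFs have no Tdgf1 value here.

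**Figure D1:**
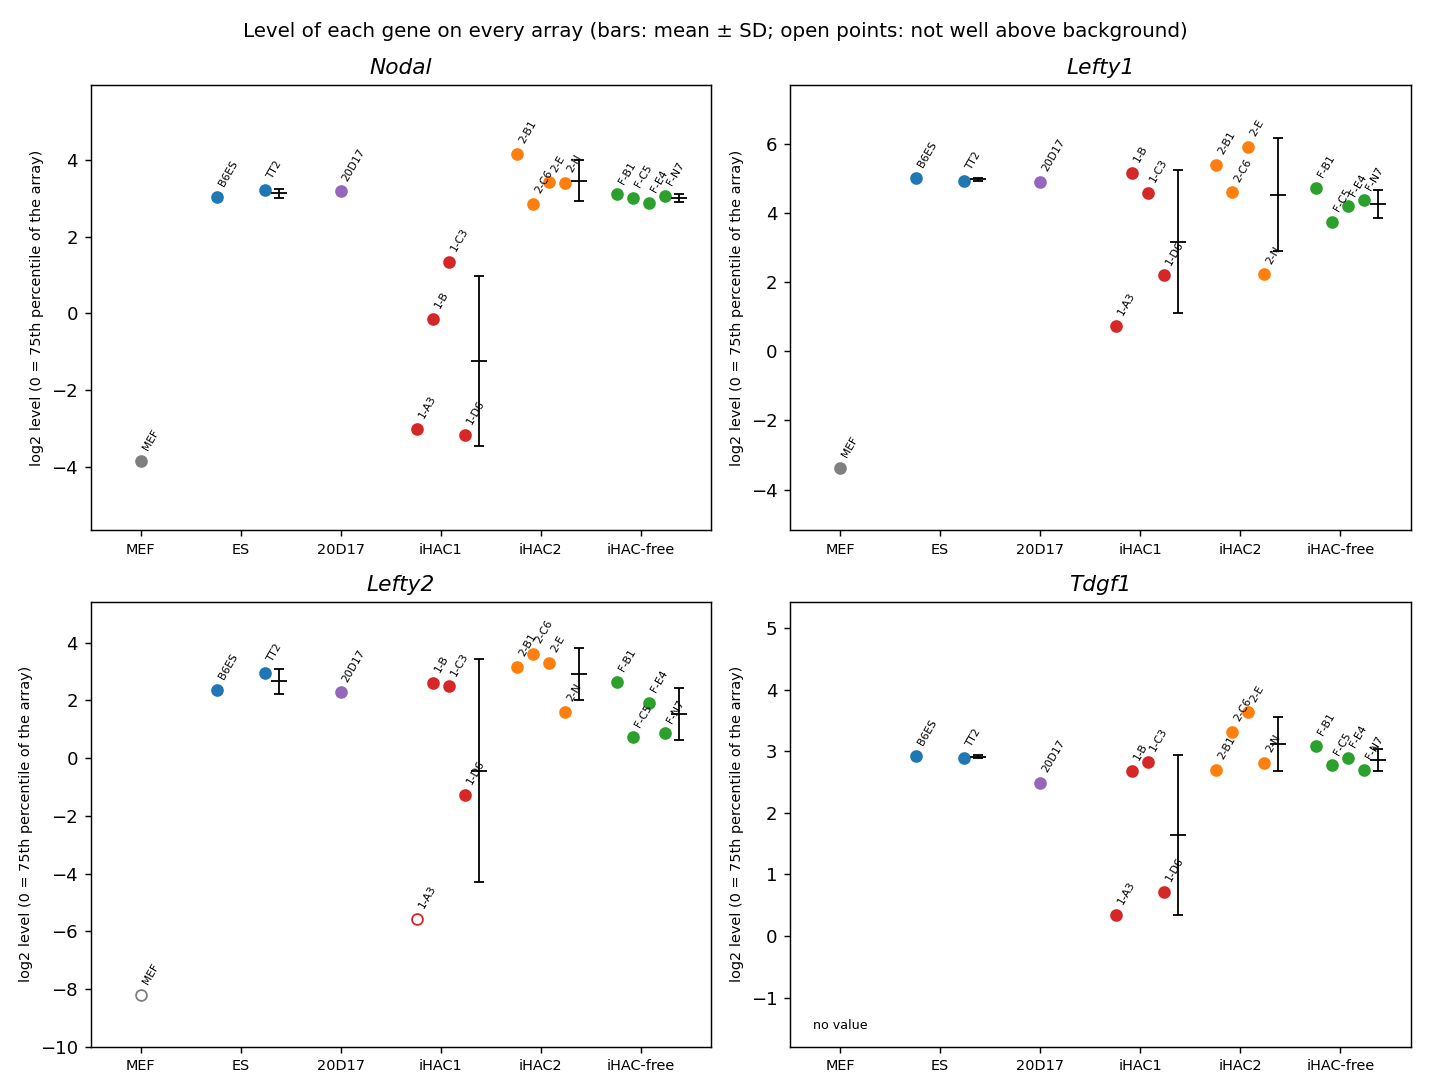
The log2 level (0 is the 75th percentile of the array) of Nodal, Lefty1, Lefty2 and Tdgf1 is plotted for every array by group, with black bars for the mean ± SD of groups with more than 1 array and open points for signals not well above background. The 4 iHAC1 clones lie between -3.15 and 1.35 for Nodal, all below the ES lines. For Lefty1, Lefty2 and Tdgf1 the clones 1-B and 1-C3 lie near the ES lines and 1-A3 and 1-D6 far below. For Tdgf1 all 4 clones are also below both ES lines, 1-B and 1-C3 only narrowly.

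Nodal, the ligand, was the gene of the 4 that was called most often. Its level was -2.99 in 1-A3, -0.14 in 1-B, 1.35 in 1-C3 and -3.15 in 1-D6. All 4 iHAC1 clones were below both ES lines, and 1-A3 and 1-D6 were within 1 unit of the MEFs. Relative to the ES mean the 4 clones were lower by 69.5-fold, 9.60-fold, 3.43-fold and 77.5-fold in the same order. The iHAC2 clones read 4.15 in 2-B1, 2.84 in 2-C6, 3.41 in 2-E and 3.40 in 2-N. The iHAC-free lines read 3.10 in F-B1, 2.998 in F-C5, 2.87 in F-E4 and 3.05 in F-N7, the tightest of the groups with 4 arrays. Both sets lay above every iHAC1 clone and overlapped the range of the ES lines.

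The mean Nodal level was -1.23 ± 2.21 (SD, n = 4) in iHAC1 clones, 3.12 ± 0.13 (SD, n = 2) in ES lines, 3.45 ± 0.54 (SD, n = 4) in iHAC2 clones and 3.004 ± 0.10 (SD, n = 4) in iHAC-free lines. Against ES lines iHAC1 clones were lower by 20.5-fold (log2 difference -4.36, SE 0.99, limma adjusted p = 0.00934). Nodal was the only 1 of the 4 genes called lower in that comparison, where 7.13% of all tested probes were called lower and 7.17% higher. Against iHAC2 clones the difference was -4.68 (SE 0.80, adjusted p = 0.00124) and against iHAC-free lines -4.24 (SE 0.80, adjusted p = 0.00179). The call against ES lines rests on both ES arrays and on the spread shared over all groups. Its adjusted p rose to 0.0714 without B6ES, to 0.0601 without TT2 and to 0.0789 when only these 2 groups were fitted, over a range of 0.00091 to 0.0789 for all alternatives. On the slide that held both ES lines and clone 1-D6, the difference of that clone from the ES mean was -6.28 on the log2 scale, a value from 1 clone with no test. The alternative with slide as a fixed block gave the same difference, so it rests on 1 clone.

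In order of mean Nodal level, iHAC2 clones were followed by 20D17, ES lines, iHAC-free lines, iHAC1 clones and MEFs. Of the first 4, the groups that were tested did not differ beyond their spread, and 20D17, with 1 array, was not tested. For iHAC2 clones against ES lines the difference was 0.33 (95% interval -1.82 to 2.47) and for iHAC-free lines against ES lines it was -0.12 (95% interval -2.27 to 2.02). These intervals are wide because the fit pools the spread with the iHAC1 clones. With only the compared groups fitted, the intervals were -0.58 to 1.23 and -0.45 to 0.21. They rest on 2 ES arrays and cross the scan sessions, so they do not show that the groups are equal in Nodal.

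**Figure D2:**
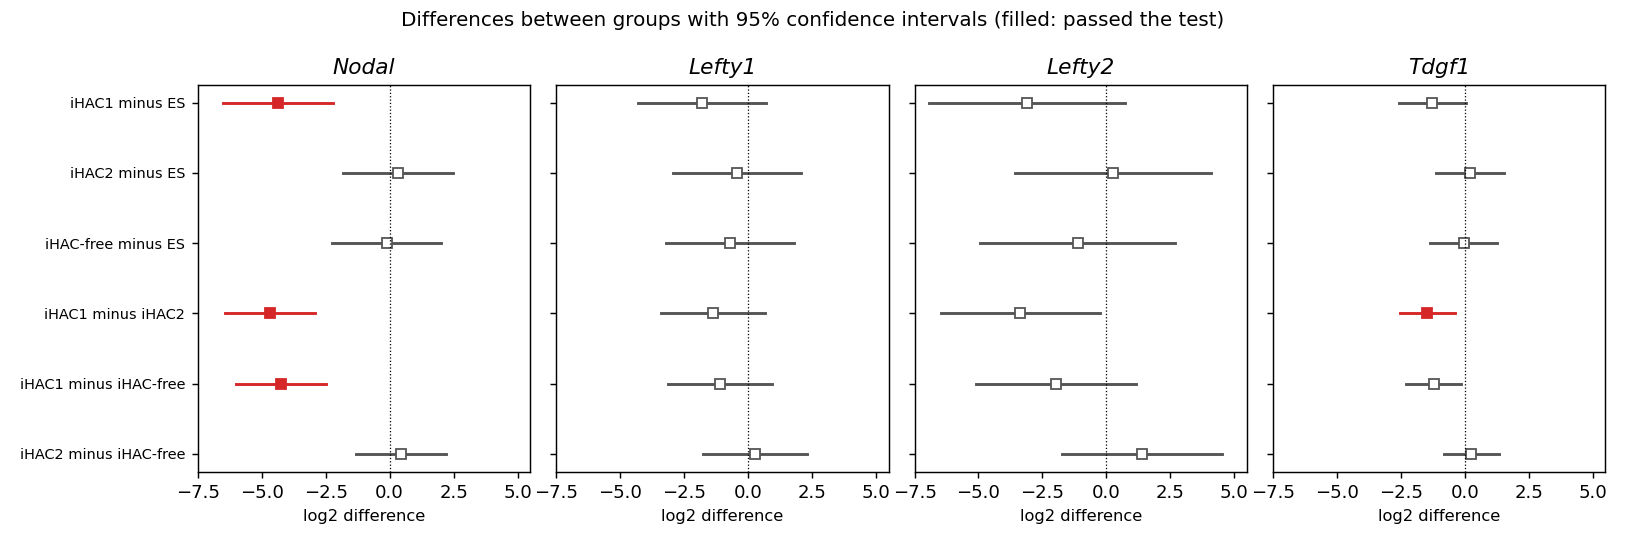
Log2 differences of the 4 genes in the 6 comparisons between groups (points) are drawn with their 95% confidence intervals from the limma fit of all arrays (lines), filled and red where the test was passed. Nodal is called lower in the 3 comparisons of iHAC1 clones, Tdgf1 only against iHAC2 clones, and each interval of the 3 comparisons without iHAC1 clones includes 0.

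Lefty1, the first antagonist, was split within the iHAC1 clones. Its level was 0.74 in 1-A3, 5.16 in 1-B, 4.58 in 1-C3 and 2.19 in 1-D6. Clone 1-B was above both ES lines and 1-C3 was 0.40 below their mean, while 1-A3 and 1-D6 were 18.8-fold and 6.85-fold below it. The iHAC2 clones read 5.39 in 2-B1, 4.60 in 2-C6, 5.91 in 2-E and 2.22 in 2-N. Clone 2-N was 6.71-fold below the ES mean, as low as 1-D6, although its Nodal level was 3.40. The iHAC-free lines read 4.74 in F-B1, 3.75 in F-C5, 4.19 in F-E4 and 4.37 in F-N7, all below both ES lines, and F-C5 was 2.33-fold below their mean.

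No comparison of Lefty1 passed the test. The mean was 3.17 ± 2.07 (SD, n = 4) in iHAC1 clones against 4.97 ± 0.05 (SD, n = 2) in ES lines, a difference of -1.81 (SE 1.15, limma adjusted p = 0.294). The iHAC1 clones differed from iHAC2 clones by -1.36 (adjusted p = 0.269) and from iHAC-free lines by -1.10 (adjusted p = 0.387). For iHAC-free lines against ES lines, whose arrays did not overlap, the difference was -0.71 with an adjusted p of 0.763, or 0.148 with only these 2 groups fitted (0.148 to 0.886 over all alternatives). The 95% interval of that narrower fit, -1.38 to -0.043, did not include 0, although its adjusted p did not pass. The order of means was ES lines, 20D17, iHAC2 clones, iHAC-free lines, iHAC1 clones and MEFs, and no pair of tested neighbours differed beyond its spread.

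Lefty2, the second antagonist, showed the widest range of the 4 genes. Its level was -5.56 in 1-A3, where it was not well above background, 2.62 in 1-B, 2.49 in 1-C3 and -1.27 in 1-D6. Clones 1-B and 1-C3 were therefore within 0.17 of the ES mean, and 1-D6 was 15.2-fold below it. The measured level of 1-A3 was 298-fold below the ES mean, a rough value because its signal was not well above background. The iHAC2 clones read 3.16 in 2-B1, 3.62 in 2-C6, 3.31 in 2-E and 1.62 in 2-N, of which 2-N was again the lowest. The iHAC-free lines read 2.63 in F-B1, 0.72 in F-C5, 1.91 in F-E4 and 0.86 in F-N7, with F-C5 and F-N7 3.83-fold and 3.48-fold below the ES mean.

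The mean of Lefty2 was -0.43 ± 3.87 (SD, n = 4) in iHAC1 clones and 2.93 ± 0.89 (SD, n = 4) in iHAC2 clones, a difference of -3.36 (SE 1.44, limma adjusted p = 0.0831). That comparison did not pass, but it did with slide as a random block (adjusted p = 0.0495) and without 1-B (0.0321) or 1-C3 (0.0372), over a range of 0.0321 to 0.172. Against ES lines, at 2.66 ± 0.42 (SD, n = 2), the iHAC1 clones differed by -3.09 (adjusted p = 0.238), and against iHAC-free lines, at 1.53 ± 0.91 (SD, n = 4), by -1.96 (adjusted p = 0.308). Both values turn on single clones, and 1-A3 entered at its measured level, which is not well above background. With 1 array left out at a time they ran from -4.11 to -1.38 against ES lines and from -2.98 to -0.25 against iHAC-free lines. The order of means was iHAC2 clones, ES lines, 20D17, iHAC-free lines, iHAC1 clones and MEFs, and no pair of tested neighbours differed beyond its spread.

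Tdgf1, the co-receptor, moved over the smallest range. Its level was 0.34 in 1-A3, 2.68 in 1-B, 2.83 in 1-C3 and 0.72 in 1-D6. Clones 1-A3 and 1-D6 were 5.95-fold and 4.58-fold below the ES mean, and 1-B and 1-C3 were within 0.23 of it on the log2 scale. As for Nodal, all 4 clones were below both ES lines, though 1-C3 (2.83) was only narrowly below TT2 (2.89). The iHAC2 clones read 2.70 in 2-B1, 3.32 in 2-C6, 3.63 in 2-E and 2.81 in 2-N, and the iHAC-free lines 3.09 in F-B1, 2.77 in F-C5, 2.89 in F-E4 and 2.69 in F-N7. Both sets spanned the ES levels, and their lowest members were close to 1-B and 1-C3.

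The mean of Tdgf1 was 1.64 ± 1.298 (SD, n = 4) in iHAC1 clones and 3.12 ± 0.44 (SD, n = 4) in iHAC2 clones, a difference of -1.47 (SE 0.49, limma adjusted p = 0.0343), which passed. With Nodal this made 2 of the 4 genes called lower in iHAC1 than in iHAC2 clones, against 11% of all tested probes called lower and 8.98% higher. The Tdgf1 call was lost without 1-A3 (adjusted p = 0.0905), 1-D6 (0.103), 2-C6 (0.0612) or 2-E (0.085) and with only these 2 groups fitted (0.102), over a range of 0.011 to 0.103. Against iHAC-free lines, at 2.86 ± 0.17 (SD, n = 4), the difference was -1.22 with an adjusted p of 0.0709, so 1 of the 4 genes, Nodal, was called lower in that comparison beside 11.1% of all probes, with 8.99% called higher. It passed with normexp background correction (0.0366) and without 1-B (0.0272) or 1-C3 (0.0196), and its adjusted p ranged from 0.0196 to 0.195. Against ES lines, at 2.91 ± 0.03 (SD, n = 2), the difference was -1.27 with an adjusted p of 0.158. The order of means was iHAC2 clones, ES lines, iHAC-free lines, 20D17 and iHAC1 clones, and no pair of tested neighbours differed beyond its spread.

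All 4 genes were lower on average in iHAC1 clones in each of the 3 comparisons of that group. The median difference over the 4 was -2.45 against ES lines, -2.42 against iHAC2 clones and -1.59 against iHAC-free lines, beside 0.04, -0.03 and 0.03 over all tested probes. These 3 comparisons share the iHAC1 arrays and are not independent. A shared direction was not limited to them. All 4 genes were also lower on average in iHAC-free lines than in ES lines, with a median difference of -0.41. All 4 were higher in iHAC2 clones than in iHAC-free lines, with a median of 0.36. Against ES lines, iHAC2 clones had 3 higher and 1 lower. In the other 3 comparisons no gene of the 4 was called by limma and none had an unadjusted p under 0.05. The background there was 3.28% lower and 3.52% higher for iHAC2 clones against ES lines, 0.175% lower and 0.188% higher for iHAC-free lines against ES lines, and 0.605% lower and 0.213% higher for iHAC2 clones against iHAC-free lines.

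Whether Nodal differed more than its partners was measured within each array, where the scaling of the array cancels. The Nodal level minus the Lefty1 level was -3.73 in 1-A3, -5.30 in 1-B, -3.23 in 1-C3 and -5.35 in 1-D6. It was -1.97 and -1.72 in B6ES and TT2, ran from -2.49 to 1.17 in iHAC2 clones, and from -1.64 to -0.75 in iHAC-free lines. All 4 iHAC1 clones thus lay below all arrays of these groups, by 3.32 on average against iHAC2 clones and by 3.14 against iHAC-free lines. The 2-sided exact permutation p was 0.0286 in each case, the smallest that 4 against 4 arrays can give, and 0.0643 after adjustment over the 9 comparisons of this kind. Against the ES lines the smallest possible exact p is 0.133, which was reached.

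Relative to Tdgf1 the same was found. The Nodal level minus the Tdgf1 level ran from -3.87 to -1.49 in iHAC1 clones, from 0.10 to 0.32 in ES lines, from -0.48 to 1.45 in iHAC2 clones and from -0.02 to 0.36 in iHAC-free lines, with the same exact permutation p of 0.0286 against each of the last 2 groups (0.0643 adjusted). Relative to Lefty2 the groups overlapped through 1-A3 (2.57), where Lefty2 was not well above background. The 2-sided exact permutation p was 0.343 against iHAC2 clones and 0.143 against iHAC-free lines. None of the 9 comparisons passed after adjustment, and the ratios were chosen after the levels had been seen.

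**Figure D3:**
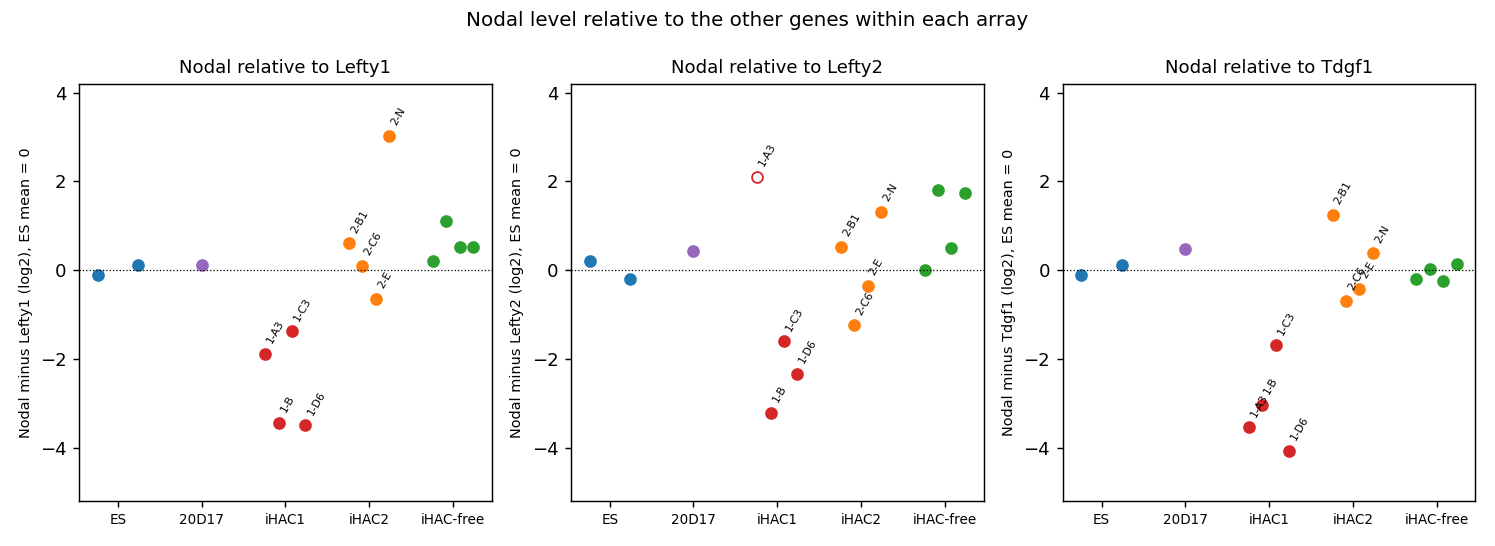
The log2 level of Nodal minus that of Lefty1, Lefty2 or Tdgf1 on the same array is plotted by group, with the mean of the 2 ES lines set to 0 and an open point where the partner was not well above background. For Lefty1 and Tdgf1 all 4 iHAC1 clones lie below every other array shown (the MEF array is not plotted), and for Lefty2 clone 1-A3, not well above background for Lefty2, is the highest of the arrays shown.

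Clones with the vector and lines without it could be compared within a line. Each iHAC-free line came from 1 of the iHAC2 clones and was hybridized on the same slide as its parent. According to the study, the lines are sub-clones sorted for absence of the vector's fluorescent marker. Loss of the vector and the sorting and sub-cloning cannot be told apart. Lefty2 was higher in the parent in 4 of 4 lines, by 0.53 for 2-B1, 2.90 for 2-C6, 1.40 for 2-E and 0.76 for 2-N. The mean excess was 1.40 ± 1.07 (SD, n = 4), and the 2-sided exact sign-flip permutation p was 0.125, the smallest that 4 pairs allow. Nodal was higher in the parent in 3 of 4 lines (mean 0.45 ± 0.50, SD), with 2-C6 lower by 0.16. Lefty1 was higher in the parent in 3 of 4 lines, by 0.65, 0.84 and 1.71, whereas 2-N was 2.14 lower than F-N7. Tdgf1 was higher in the parent in 3 of 4 lines (mean 0.25 ± 0.50, SD), with 2-B1 lower by 0.39.

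None of the 4 genes passed limma's test between iHAC2 clones and iHAC-free lines, at adjusted p of 0.806 for Nodal, 0.909 for Lefty1, 0.644 for Lefty2 and 0.821 for Tdgf1. With only these 2 groups fitted, the 95% interval for Lefty2 was 0.12 to 2.67, with an adjusted p of 0.266. By slide, the mean excess of Lefty2 in the parents was 0.64 on the slide with lines B and N and 2.15 on the slide with lines C and E. For Lefty1 the 2 slides gave -0.74 and 1.28, and for Tdgf1 -0.14 and 0.64, so the slide means of these 2 genes differed in sign. Lines B and N, which shared a slide, also differed in direction from each other. They gave 0.65 and -2.14 for Lefty1 and -0.39 and 0.12 for Tdgf1, so the slide means do not separate slide from line. For Nodal the 2 slides gave 0.70 and 0.19.

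**Figure D4:**
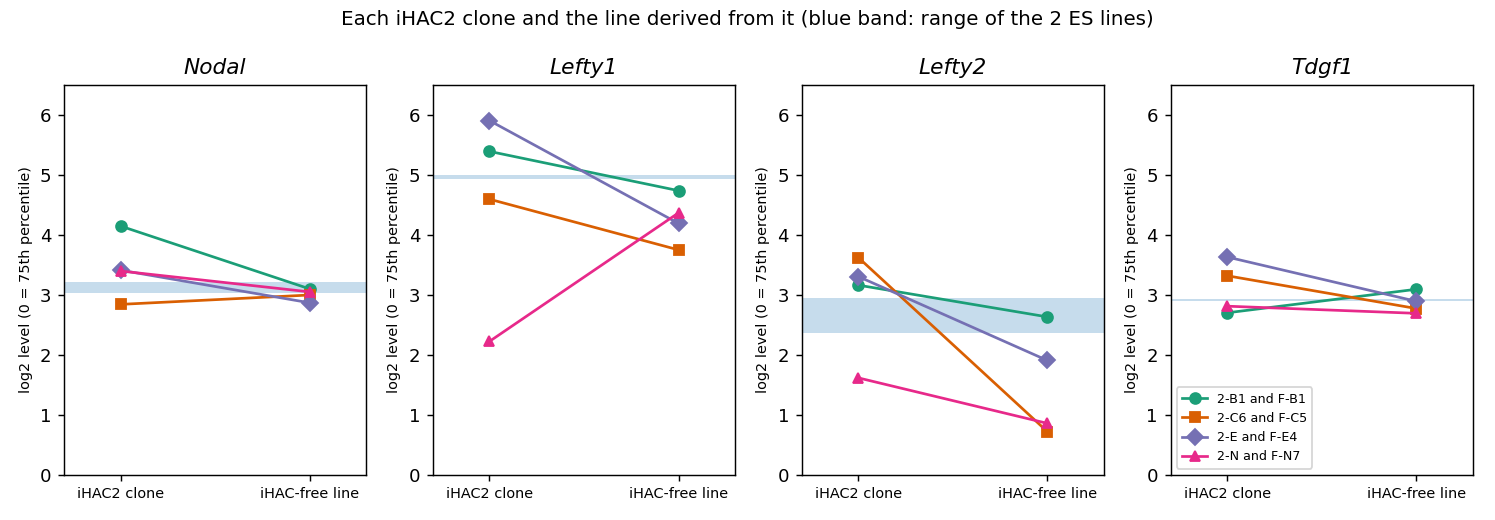
The log2 level (0 is the 75th percentile of the array) of each iHAC2 clone (left) is joined to that of the iHAC-free line derived from it (right) for the 4 genes, with a blue band for the range of the 2 ES lines. Lefty2 is lower in the iHAC-free line in 4 of 4 lines, and clone 2-N starts at 2.22 for Lefty1 and is the only one whose line is higher.

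The 4 genes were correlated over the arrays, most closely the 2 antagonists. Pearson's r was 0.94 between Lefty1 and Lefty2 over 16 arrays, 0.91 between Lefty2 and Tdgf1 over 15, and between 0.78 and 0.88 for the other 4 pairs. All points share their array and its scaling, and much of the range comes from the MEFs and the iHAC1 clones. Without those 2 groups, over 11 arrays, r was 0.62 between Lefty1 and Lefty2, 0.57 between Lefty2 and Tdgf1 and between -0.14 and 0.36 for the rest. These are descriptions and were not tested.

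Over all arrays the genes whose probes tracked Nodal most closely were Efhc2 (r = 0.984), Esrp1 (0.983), an epithelial splicing regulator, and Sec14l4 (0.982), among 26768 probes well above background on at least 4 arrays. Those closest to Lefty1 were Trh (0.973), the thyrotropin-releasing hormone gene, Lin28b (0.957), an RNA-binding inhibitor of let-7 maturation, and Lefty2 (0.945). Lefty2 was tracked most closely by a transcript known to the files only as ENSMUST00000098718 (0.977), Trh (0.961) and Dnmt3b (0.960), a de novo DNA methyltransferase. Tdgf1, over 15 arrays, was tracked by Gng3 (0.971), a G-protein subunit, Ptpn6 (0.957), a tyrosine phosphatase, and Dnmt3b (0.952). The highest of so many correlations are high by selection, and no more is read from them.

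Around the 4 genes, 30 other genes of the pathway were followed by role, and all 30 had a tested probe. Against ES lines 3 of the 30 were called higher in iHAC1 clones and 3 lower, shares of 10% each that lie near the background of 7.17% and 7.13%. The median difference over the 30 was -0.30, beside 0.04 over all tested probes. Without B6ES 3 of these 6 calls were lost, those of Pcsk5 (adjusted p = 0.071), Smad7 (0.0758) and Pmepa1 (0.324), and without TT2 that of Pmepa1 (0.0814). Against iHAC2 clones 3 were called higher and 3 lower (10% each), beside 8.98% and 11% of all tested probes. Against iHAC-free lines 3 were called higher and 5 lower (16.7%), beside 8.99% and 11.1%. For iHAC2 clones against ES lines 1 gene was called lower, beside 3.28% of all tested probes, and 0 higher, with 5 at an unadjusted p under 0.05. Between iHAC-free lines and ES lines 0 were called by limma (5 at an unadjusted p under 0.05), and between iHAC2 clones and iHAC-free lines also 0 (7 at an unadjusted p under 0.05).

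Among ligands, Gdf1, a partner of Nodal in heterodimers, was called lower in 4 comparisons. Its level was 2.21 in 1-A3, 0.53 in 1-B, 1.21 in 1-C3 and 1.89 in 1-D6, against 4.19 and 4.06 in the ES lines, a difference of -2.67 (limma adjusted p = 0.000631). All 4 iHAC1 clones were below all ES, iHAC2 and iHAC-free arrays. The iHAC2 clones were also below the ES lines, by 1.35 (adjusted p = 0.0369), a call that was lost without B6ES, TT2, 2-E or 2-N and with only these groups fitted. In the mouse Gdf1 lies in a transcript shared with the neighbouring gene Cers1, so its probe may not read Gdf1 alone. None of Gdf3, Inhba and Inhbb was called in any of the 6 comparisons.

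Among receptors, Acvr1b, the type I receptor also known as ALK4, was called lower in iHAC1 clones than in iHAC2 clones (-1.10, adjusted p = 0.00504) and iHAC-free lines (-1.04, adjusted p = 0.00594). The second probe of Acvr1b gave -0.47 and -0.37 there and did not pass. Acvr2a, a type II receptor, went the other way. Its brightest probe gave 0.83 and 0.91, below the 2-fold limit of a call. Another probe of Acvr2a passed, at 1.57 (adjusted p = 0.00294) against iHAC2 clones and 1.11 (adjusted p = 0.0158) against iHAC-free lines. Among the proprotein convertases, a family with members that cut the Nodal precursor, Pcsk5 was called higher in iHAC1 clones in all 3 comparisons of that group. Its level was 0.23 in 1-A3, -2.41 in 1-B, -1.20 in 1-C3 and 0.00 in 1-D6, against -4.90 and -4.12 in the ES lines, a difference of 3.67 (limma adjusted p = 0.00507). The probes of Pcsk5 disagreed. A second probe gave 3.39 against ES lines (adjusted p = 0.00449), whereas another gave 0.14 (adjusted p = 0.928). Against iHAC2 clones the same probes gave 0.90 (adjusted p = 0.210) and -0.81 (adjusted p = 0.369), and neither passed. Against iHAC-free lines they gave 2.68 (adjusted p = 0.00261), which passed, and -1.49 (adjusted p = 0.107), which did not. Pcsk6, the fourth in size among the called decreases against iHAC-free lines, was lower there by 1.34 (adjusted p = 0.0354), and its second probe, at -1.11, did not pass (adjusted p = 0.206).

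Among transducers, Smad3 was called higher in iHAC1 clones in all 3 comparisons of that group. The 4 clones were at 1.17, 0.98, 0.84 and 1.05 against -0.88 and -0.41 in the ES lines, a difference of 1.66 (limma adjusted p = 0.000531). They were alike in Smad3 although they differed widely in Nodal, and the MEFs were at 0.90. A second Smad3 probe gave 1.20 against ES lines (adjusted p = 0.0613), which did not pass, and passed in the other 2 comparisons.

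Among intracellular inhibitors and feedback genes, Smad7, an inhibitory Smad induced by the pathway, was called lower in iHAC1 clones in all 3 comparisons of that group. It was at -1.08, -0.55, -0.18 and -0.58 in the 4 clones against 1.13 and 1.00 in the ES lines, a difference of -1.66 (limma adjusted p = 0.00772). Tgif1, a corepressor of Smad2, was lower by 1.45 against ES lines (adjusted p = 0.00294) and by 1.58 against iHAC-free lines (adjusted p = 0.000259). Pmepa1, a feedback inhibitor of Smad activation, was higher by 1.00 against ES lines (adjusted p = 0.0474), close to the 2-fold limit of a call, and by 1.16 against iHAC-free lines (adjusted p = 0.00529). Its second probe gave 1.58 against ES lines (adjusted p = 0.126), which did not pass, and 1.71 against iHAC-free lines (adjusted p = 0.0315), which did. Fst, the activin-binding follistatin, was higher than in iHAC2 clones by 1.95 (adjusted p = 0.0267). The inhibitors thus moved in both directions. None of the 5 mesendoderm targets Eomes, T, Gsc, Mixl1 and Foxa2 was called in any comparison.

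**Figure D5:**
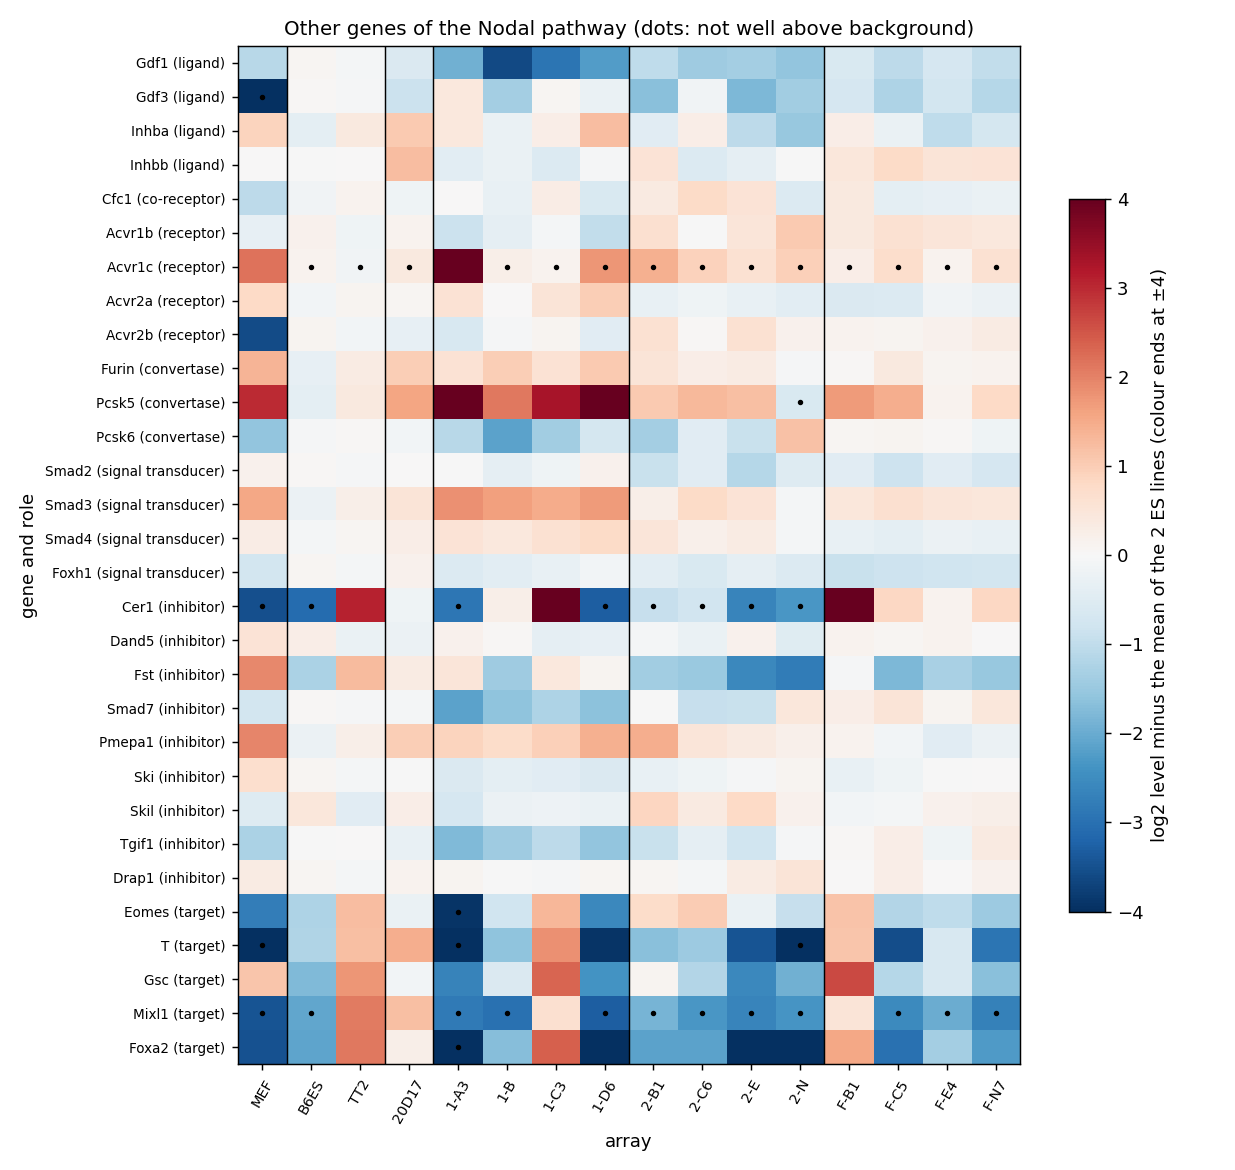
Each row is 1 of the 30 other pathway genes with its role, each column an array, and the colour gives the log2 level minus the mean of the 2 ES lines, with the colour scale ending at ±4 and dots where the signal was not well above background. Smad3 and Pcsk5 are higher and Smad7, Tgif1 and Gdf1 lower in all 4 iHAC1 clones than in the ES lines, while the target genes at the bottom vary within every group.

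Markers of cell state followed the levels of the 4 genes only in part. Of the 6 markers of pluripotent cells, 5 were matched to a probe (Nanog, Esrrb, Zfp42, Dppa5a and Utf1), and Fgf4 was not analysed here. Beside 7.13% of all tested probes, all 5 were called lower in iHAC1 clones than in ES lines. Their mean log2 level was -3.94 in 1-A3, -1.42 in 1-B, -0.47 in 1-C3 and -3.71 in 1-D6, between 3.90 and 4.36 in ES lines, between 2.19 and 4.29 in iHAC2 clones and between 3.97 and 4.10 in iHAC-free lines. The clones 1-A3 and 1-D6 were thus lowest both for these markers and for Nodal, Lefty1, Lefty2 and Tdgf1, and not well above background for 2 of the 5. Clones 1-B and 1-C3 were also below the ES lines in the mean of these markers, although near them for Lefty1, Lefty2 and Tdgf1. The mean of the 8 fibroblast markers was 4.49 in MEFs, between 3.21 and 4.27 in iHAC1 clones (highest in 1-D6 and 1-A3), between 1.42 and 2.84 in ES lines, between 1.98 and 3.99 in iHAC2 clones and between 2.96 and 3.78 in iHAC-free lines. All 8 were well above background on every array. Of these, 3 (37.5%), Col1a1, Col1a2 and Col3a1, were called higher in iHAC1 clones than in ES lines, beside 7.17% of all tested probes. Thy1 did not follow the rest of the list. It was lower in the MEFs (3.66) than in the ES lines (mean 4.72) and iHAC1 clones (mean 6.13), yet it enters the mean of the 8. The part of these markers in the differences of the 4 genes was not tested. Nor was the part of RNA from the fibroblast feeders in the marker levels. Clone 2-N, low in Lefty1 and Lefty2, had the highest pluripotent mean (4.29) and the lowest fibroblast mean (1.98) of the iHAC2 clones.

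Promoter sequence was at hand for 2 of the 4 genes, Nodal and Tdgf1, and is printed because the vectors encode DNA-binding factors and the pathway acts through others. The 250 bases upstream of the RefSeq start (GRCm38.p6, a later build than that of the probes) are given 5′ to 3′ along the gene, and capitals mark matches to the motifs searched on both strands.
Nodal, chr10:61417722-61417971 (+): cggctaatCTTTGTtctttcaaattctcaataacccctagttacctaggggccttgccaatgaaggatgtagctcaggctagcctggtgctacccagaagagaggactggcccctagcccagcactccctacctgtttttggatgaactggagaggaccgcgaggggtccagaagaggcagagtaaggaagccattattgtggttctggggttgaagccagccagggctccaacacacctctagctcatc
Tdgf1, chr9:110946159-110946408 (−): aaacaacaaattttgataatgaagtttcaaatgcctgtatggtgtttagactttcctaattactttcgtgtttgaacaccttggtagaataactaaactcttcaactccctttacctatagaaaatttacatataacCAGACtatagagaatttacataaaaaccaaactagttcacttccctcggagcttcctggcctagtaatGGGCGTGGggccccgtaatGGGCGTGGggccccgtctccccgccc
The Tdgf1 window held GGGCGTGG, a Klf-type box present in 4.79% of 32851 such windows, in 2 copies that begin 45 and 26 bases before the start, and CAGAC, a Smad box present in 42.2%, once. The Nodal window held CTTTGT, a Sox-type box present in 16.5%, once. Neither held TGTGGATT (Foxh1, 0.718% of windows) or ATTTGCAT (the octamer, 1.601%). The Klf-type box was added to the search after the Tdgf1 sequence had been seen, no matches shared a base, and a match of letters is not a binding site.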

How the data were processed

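The authors made Cy3-labelled cRNA from total RNA and hybridized it to Agilent whole-genome arrays in 1 colour, with 1 array a sample. The deposited scanner files hold the intensity of each spot on a linear scale, extracted with Agilent Feature Extraction 10.7.1.1 or 10.7.3.1 and background-subtracted but not scaled between arrays. The deposited value table holds log2 values that the authors normalized and centred by probe. Its columns, with medians from -0.33 to 0.28, followed the scanner values with slopes of 1.00, so it served as an alternative.

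Control and outlier spots were removed, spots of a probe averaged, and the 75th percentile of the array subtracted from log2 intensity. Probes above background on at least 1 array (31423) were fitted with limma 3.58.1 (R 4.3.3; lmFit, eBayes, Benjamini-Hochberg) with 6 groups, and the steps were tested on simulated data. Exact tests used Python 3.11.15 and scipy 1.17.1. The 4 genes, the lists and the tests were chosen with earlier results of these data known. Every probe of the 4 genes is reported, and pathway genes are named by the rule of up to 3 largest called changes in each direction and comparison, with the brightest probe of a gene. One gene of the pathway list is not reported here. Acvr2a, and Pcsk6 and Acvr1b against iHAC-free lines, were named outside the rule. Symbols come from the files and, through accessions, from a RefSeq table, and Nanog from its probe description. Promoters are from RefSeq, which matched 2 of the 4 genes.

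Groups follow the labels. Nothing says that clones were grown more than once, so p-values measure the spread between clones. The study's methods tie each iHAC-free line to its iHAC2 clone, so these arrays are paired by line. Deviations from group means correlated between -0.22 and 0.08 within lines and between -0.10 and 0.22 across lines, and a fit with the line as a block was run. The number of arrays limits precision, and no 2 arrays were duplicates. Alternatives were normexp background correction with an offset of 50, quantile normalization, the deposited table, looser and stricter filters, slide as a block, only the compared groups, each array left out, and other probes for the pathway genes.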

Additional observations from a re-analysis of the deposited data

Results flagged for a closer look

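Each of the 4 genes was examined for an outlying array in the 3 groups of 4 arrays, 12 sets in all, and none passed Dixon's 95% limit for the gap over the range. The closest was Lefty2 in clone 2-N of the iHAC2 clones, at a log2 level of 1.62 and a ratio of 0.771.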

How the results depend on the processing

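Nodal against iHAC2 clones and against iHAC-free lines kept its direction and its call in iHAC1 clones under all 15 alternatives to each. Nodal in iHAC1 clones against ES lines was -4.36 and not called with only those 2 groups fitted, and -5.22 to -3.72 with arrays left out (uncalled without either ES line). Tdgf1 in iHAC1 against iHAC2 clones was -1.47 and not called with only those groups, and -1.87 to -1.04 with arrays left out. Tdgf1 in iHAC1 clones against iHAC-free lines was called at -1.24 with normexp, and ran from -1.62 to -0.78 with arrays left out. Lefty2 in iHAC1 against iHAC2 clones was called at -3.31 with slide as a random block, and ran from -4.37 to -1.65 with arrays left out. Differences that were never called turned sign around 0. For iHAC-free lines against ES lines these were Nodal, 0.013 with quantile normalization and 0.12 with slide as a random block, and Tdgf1, 0.0015 with normexp, 0.082 with quantile normalization, 0.068 with slide as a random block and -0.13 to 0.0076 with arrays left out. Leaving out arrays moved Lefty1 from -0.90 to 0.33 and Lefty2 from -0.029 to 0.71 in iHAC2 clones against ES lines, and Lefty1 from -0.19 to 1.04 in iHAC2 clones against iHAC-free lines. The causes were not tested. With the line of origin as a replicate block, the pairing gave 0.45 for Nodal and 1.40 for Lefty2 between iHAC2 clones and iHAC-free lines (adjusted p = 0.837 and 0.693), and it changed no call. The count of called pathway genes was 3 in place of 6 for iHAC1 clones against ES lines without B6ES and between 0 and 2 in place of 1 for iHAC2 clones against ES lines. The median difference over all probes under normexp was -0.14 for iHAC-free lines against ES lines, 0.19 for iHAC1 clones and 0.15 for iHAC2 clones against iHAC-free lines, beside 0.03, 0.03 and 0.04 in the main setting. Each of the 4 genes had 1 probe, so a second probe could not be tried. Levels near background, as for Lefty2 in 1-A3 and the MEFs, are uncertain.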

Other observations

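The 5 target genes of the pathway differed between the 2 ES lines, which had nearly equal Nodal. All 5 were higher in TT2 than in B6ES, for example by 2.39 for T, the mesoderm gene brachyury, and by 4.22 for Foxa2, an endoderm transcription factor, on the log2 scale. Mixl1 was not well above background in B6ES, so its gap is uncertain. Gsc, the organizer gene goosecoid, was at -2.77 in B6ES and 0.78 in TT2. Among the iHAC-free lines F-B1 was the highest for 5 of 5 targets, and among the iHAC1 clones 1-C3 was the highest for 5 of 5. These are single arrays chosen after their values were seen, with no test. Of 5 primitive endoderm markers 4 were tested, and none was called in any of the 6 comparisons (1 at an unadjusted p under 0.05 for iHAC-free lines against ES lines).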
